A study of Mus musculus with 16 samples.

Results

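The interferon-stimulated genes examined here are 39 mouse genes, named as a group, out of 21881 genes with a protein-coding transcript. They were followed through the open chromatin around their transcription starts in ATAC-seq peak lists of hematopoietic stem and progenitor cells (HSPCs). ATAC-seq cuts accessible DNA with a transposase, and a peak marks a place where cuts pile up. Peaks of all 16 lists were merged where they overlapped by at least 1 bp, giving 296215 regions, of which 192 lay within 10 kb of a start of a member. A region within 1 kb of a start was a promoter region (50 regions), and the other 142 were flanking regions.

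Interferon-stimulated genes are switched on when interferon binds its receptor and the Janus kinases Jak1 and Tyk2 are activated. Stat2 and Irf9 then take part in a complex that binds the interferon-stimulated response element (ISRE), whereas the gamma-activated site (GAS) is the element of the interferon gamma response. Hematopoietic stem cells are known to respond to interferon and to carry part of this programme at rest.

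HSPCs were sorted from bone marrow, and each library held cells pooled from 2 age-matched mice of the same genotype. The 4 genotypes were WT (Ep300 fl/fl without Cre), P300KO (Mx1-Cre with Ep300 fl/fl), TET2KO (Ep300 fl/fl with Tet2-/-, without Cre) and P300KO_TET2KO (Mx1-Cre with Ep300 fl/fl and Tet2-/-), with 4 libraries each. Per the study's methods all groups were given poly(I:C), a synthetic double-stranded RNA that induces interferon and so the Mx1 promoter that drives Cre. Tet2 was deleted in the germline, whereas Ep300, which encodes the acetyltransferase p300, was deleted in interferon-responsive cells. Mx1 is itself a member, and the 8 libraries that lost p300 are also the 8 that carry the Cre transgene. Replicates 1 and 2 of each genotype form deposit set 1 and replicates 3 and 4 form deposit set 2.

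Lists of set 1 held 86039 to 110055 peaks and those of set 2 held 130610 to 137335. The read depth behind each list is unknown, so peak strength was compared only as a rank percentile within a list, in which 100 is the strongest region of that library and 0 means no peak. Promoters of the HSPC genes Kit, Cd34, Flt3, Meis1 and Hlf had a peak in 16 of 16 libraries, with mean percentiles of 90.9 to 97.3, and 8 of 10 HSPC markers were open throughout. Markers of other cells were open in every library at 1 of 4 B cell genes (Pax5, 93.0), 2 of 6 granulocyte and monocyte genes (Itgam, 77.1, and Adgre1, 73.1) and 2 of 2 erythroid genes (Klf1, 97.7, and Epor, 91.2), but at none of 4 T cell genes, 2 NK cell genes and 1 plasmacytoid dendritic cell gene. Ms4a1 (B cells), Ncr1 (NK cells) and Ly6g (granulocytes) had no peak in any library. The summed percentile of each list, divided by its number of genes, overlapped between libraries that lost and kept p300. It was 77.0 to 84.4 against 73.3 to 84.5 for HSPC, 22.3 to 36.4 against 23.0 to 42.8 for B cell, 0 to 18.1 against 0 to 29.5 for T cell and 0 to 22.2 against 0 to 25.3 for NK cell genes. For granulocyte and monocyte genes it was 32.2 to 45.6 against 17.9 to 46.9, for erythroid genes 92.2 to 96.6 against 92.1 to 95.6, and for the plasmacytoid dendritic cell gene 0 to 75.6 against 18.7 to 77.5. A peak list cannot tell fewer cells with an open site from less open chromatin per cell.

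RefSeq promoter windows, which run from 250 bases before to 50 after a start, were found for 30 of the 39 members. The ISRE core, GAAANNGAAA on either strand, stood in the windows of 13 of these 30 genes (43.3%) and in 664 of 16519 protein-coding genes (4.02%). The GAS core, TTCNNNGAA, stood in 9 of 30 (30.0%) and 1490 of 16519 (9.02%). Bst2, Eif2ak2 and Ifitm3 held both cores, and 11 of the 30 held neither. The ISRE cores that lay in a promoter region are shown for the 12 genes of highest promoter rank, in that order and without Ifitm3, the lowest of the 13, because the choice of genes did not use them and the core was in a larger share of member windows than of all windows. Each runs 5′ to 3′ along the gene's strand in GRCm38.p6 (mm10) as RefSeq gives it, with the core in capitals, and a core on the opposite strand appears as its reverse complement.
Stat2, chr10:128270266-128270295, plus strand: cgcaccctggTTTCAGTTTCctttccctag
Bst2, chr8:71537577-71537612, minus strand: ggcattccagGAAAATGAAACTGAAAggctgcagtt
Ifih1, chr2:62646206-62646233, minus strand: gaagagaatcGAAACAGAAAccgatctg
Trim30a, chr7:104465210-104465239, minus strand: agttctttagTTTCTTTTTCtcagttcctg
Eif2ak2, chr17:78882535-78882564, minus strand: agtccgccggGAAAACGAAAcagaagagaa
Rsad2, chr12:26456553-26456582, minus strand: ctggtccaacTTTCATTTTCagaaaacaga
Ifit1, chr19:34640775-34640823, plus strand: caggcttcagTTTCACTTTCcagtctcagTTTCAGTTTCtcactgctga
Gbp2, chr3:142620594-142620623, plus strand: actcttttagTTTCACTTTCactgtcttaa
Oas3, chr5:120777715-120777744, minus strand: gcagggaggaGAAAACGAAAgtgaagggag
Ddx58, chr4:40239804-40239833, minus strand: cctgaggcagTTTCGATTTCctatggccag
Ifit3 (upstream site), chr19:34583363-34583392, plus strand: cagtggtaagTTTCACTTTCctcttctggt
Ifit3 (downstream site), chr19:34583397-34583426, plus strand: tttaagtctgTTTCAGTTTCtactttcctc
Isg15, chr4:156200865-156200906, minus strand: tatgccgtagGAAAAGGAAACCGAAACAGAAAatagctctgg

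These cores began between 222 bases before a start (Stat2) and 33 after it (Ifih1), and those of Ifih1, Eif2ak2, Gbp2 and Ddx58 stood in sequence that touches an annotated exon, as did those of Ifitm3. Isg15 carried 3 overlapping cores, and Bst2, Ifit1, Ifit3 and Ifitm3 carried 2 each. At the accessible sites themselves, a window of 150 bases either side of the summit held an ISRE core in 20 of 44 member promoter regions (45.5%), against 618 of 19767 promoter regions of all genes (3.13%). In flanking regions the share was 11 of 88 (12.5%) for members and 1386 of 29322 (4.73%) for all genes. The median GC content of the member windows was 53.8%, against 57% over all genes, and the median observed-to-expected CpG ratio was 0.385 against 0.584. The 13 genes with an ISRE core in the window had leading promoter percentiles of 41.5 to 98.4 with a median of 82.2, and the 17 without had 26.4 to 97.6 with a median of 93.5. A match describes sequence and is not evidence of binding.

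**Figure D1:**
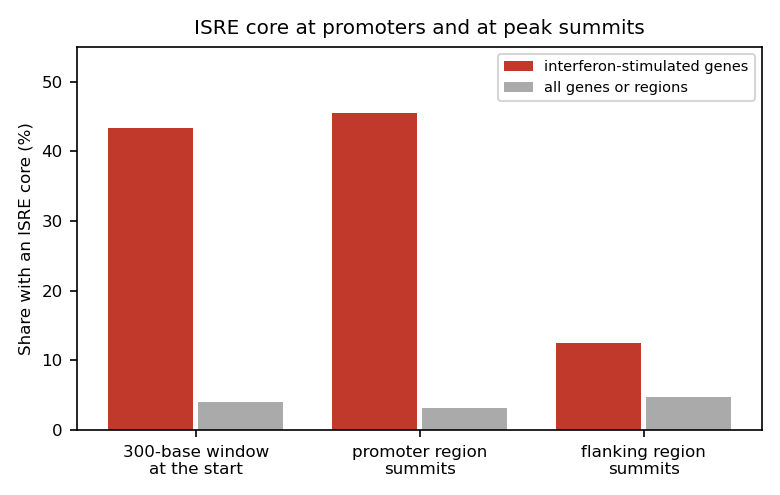
Bars give the share (%) of RefSeq windows at the start, of promoter region summits and of flanking region summits that hold an ISRE core, for the interferon-stimulated genes (red) and for all genes or regions (grey). The core was in 43.3%, 45.5% and 12.5% of the member sequences and in 4.02%, 3.13% and 4.73% of all.

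Promoters of these genes were open in nearly every library. A promoter peak was present in 16 of 16 libraries at 37 of 39 members (94.9%), against 13680 of 21881 genes in all (62.5%). The count was 37 to 39 members in WT libraries, 38 or 39 in P300KO and TET2KO libraries and 39 in each P300KO_TET2KO library. Where a gene had several promoter regions, that with the highest mean percentile was taken as its leading region, which gave 37 different regions since Psmb9 shared one with Tap1 and Parp9 one with Dtx3l. The median over these 37 was 85.3, close to the 89.0 of the leading promoters of all genes, and their range was 26.4 to 98.4. In the order of mean percentile, all 36 pairs of neighbouring regions were closer to each other than the larger of their SDs over 16 libraries. Neighbours in a sorted list are close by construction and these SDs pool genotypes and sets, so their order was not tested.

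The 5 members with the highest promoter ranks were 3 of the 4 transcription factors (Stat2, Irf1 and Irf9) and 2 of the 3 antigen processing genes (Psmb9 and Tap1). Stat2, a subunit of the ISRE-binding complex, had percentiles of 97.6, 97.6, 98.5 and 98.5 in the WT libraries and 98.8, 98.7, 99.2 and 98.9 in the P300KO_TET2KO libraries, with P300KO (98.0 to 99.0) and TET2KO (97.7 to 98.7) between. Irf9, its DNA-binding partner, ranged from 95.1 to 97.9 over all 16 libraries, and Irf1, an early interferon-induced factor, from 96.3 to 98.3. Psmb9, an immunoproteasome subunit, and Tap1, a peptide transporter, are divergently transcribed from a shared promoter with percentiles of 96.5 to 99.3. Psmb8, another immunoproteasome subunit, had 88.0 to 94.4. Irf7, the factor that amplifies interferon production, stood lower at 77.5 to 89.7.

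Nucleic acid sensors and ubiquitin-like modifiers spread more widely. Among the sensors the mean was 94.7 for Ifih1 (the RNA sensor MDA5), 85.2 for Dhx58, 81.4 for Zbp1 and 71.5 for Ddx58 (RIG-I). Trim25, a ubiquitin ligase that acts on RIG-I, had 96.3 and Usp18, which removes Isg15 from proteins, had 95.6. Parp14, an ADP-ribosyltransferase, was among the lowest of the group at 67.3. Isg15, the ubiquitin-like modifier itself, stood at 0, 69.2, 42.8 and 52.3 in WT, 59.5, 48.9, 48.4 and 55.3 in P300KO, 64.2, 63.6, 57.4 and 33.3 in TET2KO, with 52.7, 49.4, 39.8 and 45.5 in P300KO_TET2KO. WT replicate 1 had no peak there, and the 4 groups overlapped.

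The 21 antiviral effectors ran from 95.7 for Bst2, which tethers budding virions, to 26.4 for Ifi44. Ifi44 had a leading promoter peak in 13 of 16 libraries and lacked it in WT replicate 1, P300KO replicate 2 and TET2KO replicate 1, which are all of set 1. Its percentiles were 21, 22.2, 40.1 and 47.1 in P300KO_TET2KO and 0 to 41.4 in WT. Ifitm3, which blocks viral entry, had percentiles of 0, 57.4, 33.5 and 48.0 in WT, 59.0, 20.6, 46.5 and 48.8 in P300KO, 38.2, 53.1, 43.9 and 30.9 in TET2KO, with 39.8, 45, 49.5 and 49.1 in P300KO_TET2KO. WT replicate 1 was again the library without a peak in the leading region. Oas2, an oligoadenylate synthetase, ranged from 39.8 to 70.4, and within each genotype but P300KO its set 2 libraries were above its set 1 libraries.

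**Figure D2:**
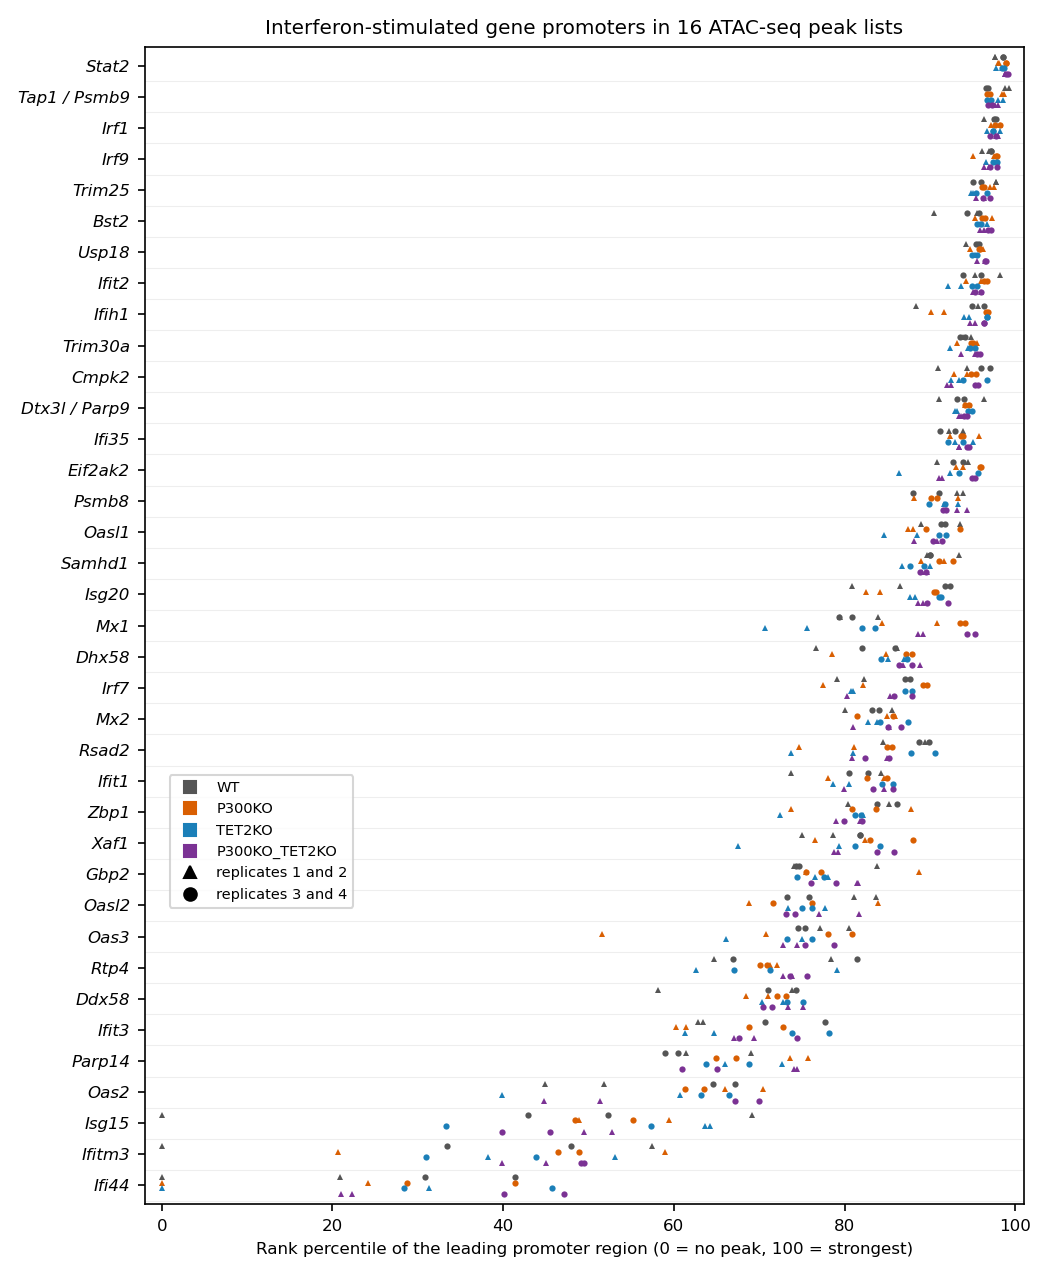
Each row is a leading promoter region, ordered by mean, and each point its rank percentile in 1 library (colour for genotype, triangles for replicates 1 and 2, circles for replicates 3 and 4). Points of Stat2 lie between 97.6 and 99.2, whereas those of Isg15, Ifitm3 and Ifi44 spread from 0 to 69.2.

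Of 132 member regions with a peak in at least 4 libraries, 1 changed with loss of p300, the promoter of Mx1. Mx1 encodes a dynamin-like GTPase known to restrict influenza viruses. Its region (chr16:97462592-97464459, minus strand gene) had a peak in 16 of 16 libraries. Percentiles were 83.9, 79.5, 79.3 and 80.8 in WT, 90.8, 84.4, 93.5 and 94.1 in P300KO, 75.5, 70.7, 83.6 and 82.0 in TET2KO, with 88.5, 89.1, 95.3 and 94.3 in P300KO_TET2KO. All 8 libraries that lost p300 and carry Cre were above all 8 others, which held for 0.0127% of leading promoter regions of all genes. Averaged over both Tet2 backgrounds the difference was 11.84 percentile points (SE 1.44, limma with Benjamini-Hochberg adjustment over 128335 regions, adjusted p = 0.00275), with the 7th smallest unadjusted p. In this comparison 0.21% of all regions were called, and 0.0873% were called higher. The exact permutation test over the 1296 rearrangements within sets and Tet2 backgrounds gave p = 0.00154, the smallest it can give.

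The difference was 10.82 points in set 1 and 12.87 in set 2. The summed percentiles of the marker lists overlapped between the same groups of 8 libraries, as given above. These ranges pool both sets, whose lists differ in length, so they do not test for a change in cell types. Of single markers, the largest differences with p300 loss were at Csf1r (monocytes) and Klrb1c (NK cells). Csf1r differed by 17.81 points (24.6 in set 1 and 11.0 in set 2, limma adjusted p = 0.246). Klrb1c differed by -15.22 points (-29.4 in set 1 and -1.02 in set 2, limma adjusted p = 0.356). Other granulocyte and monocyte genes tested went both ways, with 4.86 points for Adgre1, 1.25 for Itgam and -6.09 for S100a8. Mecom and Gata2 (HSPC) differed by -1.34 and 4.65 points and Pax5 (B cells) by -1.29. No marker tested passed, and their part in the result was not tested. The Mx1-Cre transgene carries an Mx1 promoter, so reads from the transgene and from the gene's own promoter cannot be told apart, nor can loss of p300 and presence of Cre. The call was lost when regions were ranked by fold enrichment (6.41 points, adjusted p = 0.155, with 0.039% of all regions called). It was also lost in a fit without the set (adjusted p = 0.155) and in set 1 alone (adjusted p = 0.568), fits in which 0% of all regions were called. It was kept when any 1 library was left out (adjusted p = 0.00023 to 0.0123).

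The shape of the peak differed too. The following distances were measured after the rank difference had been seen and are given as a description. The strongest peak ended 371 to 758 bp upstream of the Mx1 start in the 8 libraries without Cre and 830 to 1553 bp upstream in the 8 with Cre. Ends that were farther upstream in all 8 were found at 0.0296% of the 13536 promoters measured in the same way. Separate weaker peaks farther upstream were present in P300KO replicates 1 and 3 and in P300KO_TET2KO replicate 1, whereas P300KO replicate 2 had 1 peak that reached 1553 bp. The summit lay 79 to 94 bp upstream in libraries with Cre and 48 to 87 bp upstream in those without.

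**Figure D3:**
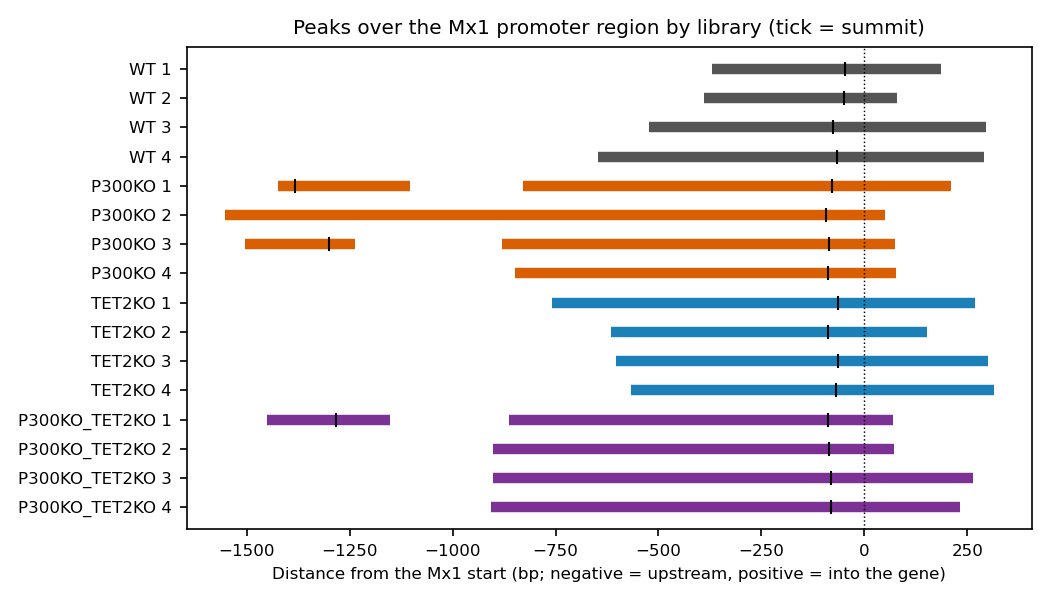
Horizontal bars give the extent of each peak over the Mx1 promoter region by library, as distance from the Mx1 start in bp (negative upstream), and ticks give summits. Bars of P300KO and P300KO_TET2KO libraries reach at least 830 bp upstream, and those of WT and TET2KO libraries at most 758 bp.

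Next to this region, a flanking region with its summit 2013 bp upstream of the Mx1 start had peaks in 4 libraries, P300KO replicates 1, 2 and 4 (percentiles 7.52, 58.1 and 0.983) and P300KO_TET2KO replicate 1 (19.0). It had none in the 8 libraries without Cre, so it met the minimum of 4 libraries with a peak only through libraries with Cre, and it is described with no test. The neighbouring family member Mx2, annotated as a polymorphic pseudogene with protein-coding transcripts, has its start on the same chromosome and did not follow Mx1. Its percentiles were 80.1, 85.5, 84.0 and 83.3 in WT, 85.0, 85.8, 85.7 and 81.5 in P300KO, 82.7, 83.8, 87.4 and 84.1 in TET2KO, with 81.0, 85.2, 85.1 and 86.7 in P300KO_TET2KO. These groups overlapped, and the difference for p300 loss was 0.65 points (SE 1.17, adjusted p = 0.842).

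**Figure D4:**
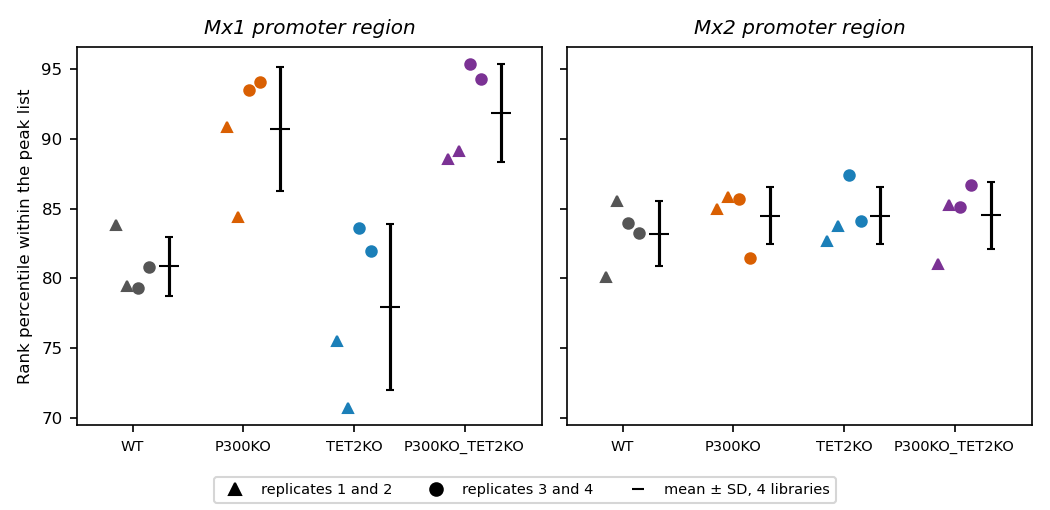
Rank percentiles of the Mx1 (left) and Mx2 (right) promoter regions by genotype, with triangles for replicates 1 and 2, circles for replicates 3 and 4, and bars for the mean ± SD of 4 libraries. Mx1 lies at 84.4 to 95.3 in libraries with Cre and 70.7 to 83.9 in those without, whereas Mx2 lies at 80.1 to 87.4 throughout.

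Within the Tet2-deficient background, Mx1 was again the member region called. It averaged 91.8 ± 3.48 (SD, n = 4) in P300KO_TET2KO and 78.0 ± 5.96 (SD, n = 4) in TET2KO, a difference of 13.87 points (SE 2.04, limma, adjusted p = 0.0231), in a comparison that called 0.0296% of all regions. The call was lost on leaving out 6 of the 16 libraries 1 at a time, TET2KO replicates 1, 2 and 4 and P300KO_TET2KO replicates 2, 3 and 4 (adjusted p = 0.0607 to 0.103), while the difference stayed between 12.15 and 15 points whichever of the 16 was left out. It was also lost when ranked by fold enrichment, without the set term, in set 1 alone and without a filter on regions, where 0.00857%, 0.00234%, 0% and 0% of all regions were called. In set 1 alone Mx1 still stood at 88.55 and 89.1 in P300KO_TET2KO and at 75.5 and 70.7 in TET2KO. With Tet2 present, Mx1 averaged 90.7 ± 4.44 (SD, n = 4) in P300KO and 80.9 ± 2.11 (SD, n = 4) in WT. That difference of 9.82 points (SE 2.04, adjusted p = 0.128) did not pass, and no member region did in a comparison that called 0.0156%. It passed without WT replicate 1 (11.83 points, adjusted p = 0.0254), where 0.06% of all regions were called, and with the log2 rank, the strongest 50000 peaks and set 2 alone, where 0.0351%, 0.329% and 0.0273% were. The interaction called no member region and 0% of all regions, so the effect on Mx1 was not shown to differ between Tet2 backgrounds.

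No other member promoter passed in any comparison. P300KO against WT had 13 of 132 member regions at an unadjusted p below 0.05 (9.85%), against 11.1% of all regions. TET2KO against WT called no member and 0.00623% of all regions, with 10 of 132 (7.58%) below 0.05 before adjustment, against 8.05% of all regions. P300KO_TET2KO against P300KO called no member and 0.0826% of all regions, with 8 of 132 (6.06%) below 0.05 before adjustment, against 7.50%. Tet2 loss over both p300 backgrounds called no member and 0.192% of all regions, and 10 of 132 (7.58%) were below 0.05 before adjustment where 10.8% of all regions were. For p300 loss over both backgrounds that count was 15 of 132 (11.4%) against 13%. The member share was above that of all regions in 2 comparisons, P300KO_TET2KO against TET2KO with 12 of 132 (9.09% against 7.02%) and the interaction with 8 of 132 (6.06% against 4.18%). Of these, 10 of the 12 and all 8 were flanking regions. In P300KO_TET2KO against TET2KO, 3 of the 12 met the minimum of 4 libraries with a peak only through the group where they were higher. So did 11 of the 132 member regions and 10.7% of all regions. For p300 loss and for Tet2 loss alike, 25 of the 132 regions met the minimum of 4 libraries with a peak only through the group where they were higher, with fewer than 4 other libraries. These include 5 of the 15 and 4 of the 10 below 0.05. Since the minimum favours a difference in them, such a region is named with no test of its own for that comparison. Calls of such regions in other settings are only counted.

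The median difference over the 44 member promoter regions lay between 0.09 and 0.78 points when regions were ranked by −log10 p. For p300 loss it was 0.61 points, with 30 of 44 positive, against 0.04 over all promoter regions. For Tet2 loss it was 0.22 points against 0.25 over all promoter regions, with 25 of 44 positive. For P300KO_TET2KO against TET2KO it was 0.78 against 0.29, for P300KO against WT 0.34 against -0.18, for TET2KO against WT 0.09 against -0.02, and for P300KO_TET2KO against P300KO 0.29 against 0.51. The SD of the library median over leading member promoters within genotype and set was 1.41 points. It describes single libraries and is not the error of these medians of differences, which were not tested. Ranked by fold enrichment, the 6 medians were negative. For p300 loss the median was then -1.55 (12 of 44 positive), against -1.14 over all promoter regions, and for P300KO_TET2KO against TET2KO it was -1.96 against -1.68. The other 4 were -0.44 for P300KO against WT, -0.14 for TET2KO against WT, -0.83 for P300KO_TET2KO against P300KO and -0.59 for Tet2 loss. With only peaks of a −log10 q of at least 2 the 6 medians ran from 1.70 to 4.57, the highest for TET2KO against WT, where all promoter regions had 2.48. Leaving out 1 library moved the median of P300KO_TET2KO against TET2KO between 0.42, without TET2KO replicate 2, and 1.197, without TET2KO replicate 3. It moved that of P300KO against WT between 0.085 and 0.76 points and that of TET2KO against WT between -0.68, without WT replicate 1, and 0.52, without WT replicate 2. It also turned the sign for TET2KO against WT without TET2KO replicate 3 (-0.086) and for P300KO_TET2KO against P300KO without P300KO replicate 2 (-0.25), and Tet2 loss fell just below 0 without P300KO replicate 2 or 4 (-0.0060 and -0.0057).

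**Figure D5:**
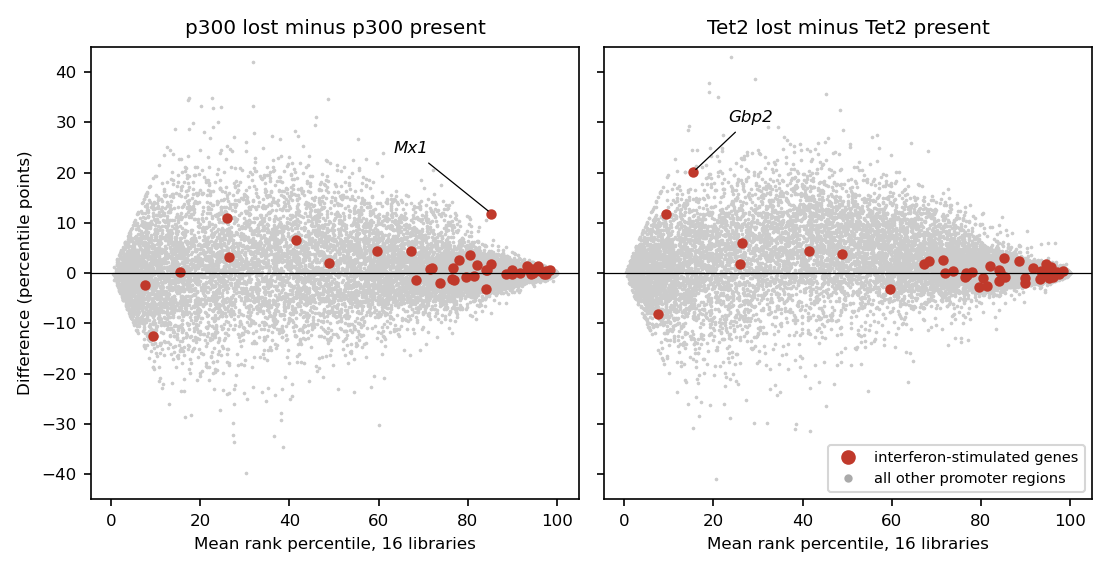
Each point is a promoter region, with its mean rank percentile over 16 libraries on the horizontal axis and its difference in percentile points for loss of p300 (left) or Tet2 (right) on the vertical axis, members in red. Mx1 at 11.84 points stands above the other member promoters of high rank on the left, and the upstream promoter region of Gbp2 lies highest among members on the right at 20.04 points.

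Further members had differences that did not pass. Stat2 had a difference of 0.51 points for p300 loss (SE 0.25, adjusted p = 0.406), although the exact permutation within sets, unadjusted for the 264 such tests made, gave the smallest possible p of 0.00154. Gbp2, an interferon-induced GTPase, had a promoter region 771 bp upstream of its start with percentiles of 34.4, 0, 0 and 0 in WT, 0, 0, 8.34 and 0 in P300KO, 29.8, 0, 23.2 and 34.6 in TET2KO, with 27.9, 27.0, 22.5 and 38.1 in P300KO_TET2KO. A peak was there in 7 of 8 Tet2-deficient libraries and 2 of 8 others, a mean difference for Tet2 loss of 20.04 points. The leading region of Gbp2, which holds its ISRE core, differed by 0.11 points (SE 1.94). The upstream region met the minimum of 4 libraries with a peak only through Tet2-deficient libraries, so its difference is given with no test. It was the 1 member region counted as called for Tet2 loss with only peaks of a −log10 q of at least 2. In that setting 0.122% of all regions were called.

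Rtp4, a transmembrane protein transporter induced by interferon, has 5 promoter regions at 5 annotated starts. That 569 bp upstream of a start had peaks in TET2KO replicates 2, 3 and 4 (41.2, 25.1 and 30.6), WT replicate 3 (28.1) and P300KO_TET2KO replicates 1 and 4 (5.63 and 19.0), and in no P300KO library. Its difference for p300 loss was -12.55 points, given with no test. Oasl1, an oligoadenylate synthetase-like protein, had a second promoter region with a difference of 10.99 points (SE 7.54, adjusted p = 0.551) and values from 0 to 53.9. Rsad2 (viperin) averaged 88.1 ± 2.45 in WT and 81.5 ± 5.0 in P300KO (SD, n = 4), with a difference for p300 loss of -3.26 points over both Tet2 backgrounds (SE 1.64, adjusted p = 0.414). Within the Tet2-deficient background it averaged 83.4 ± 2.07 in P300KO_TET2KO and 83.3 ± 7.49 in TET2KO, a difference of 0.08 points (SE 2.33, adjusted p = 1) where P300KO against WT differed by -6.59 (SE 2.33, adjusted p = 0.354). In set 2 alone Rsad2 was 1 of 4 member regions of 132 that passed (-4.74 points, adjusted p = 0.0307), a share of 3.03% where 3.02% of all regions were called.

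Flanking regions were fewer in set 1, with 53 to 72 of 142 per library, than in set 2, with 78 to 85. A peak in all 16 libraries was found at 30 of them (21.1%, against 11.9% of flanking regions of all genes), a peak in a single library at 41, and 16 were the promoter of another gene. The mean number was 70 ± 13.6 for WT, 70.5 ± 12.1 for P300KO, 69.5 ± 12.2 for TET2KO and 75.3 ± 9.81 for P300KO_TET2KO (SD, n = 4), a spread that pools both sets. Within set 1, P300KO_TET2KO libraries had 63 and 72, TET2KO 57 and 61, WT 53 and 65, and P300KO 55 and 67. Within set 2, P300KO_TET2KO libraries had 81 and 85, TET2KO 80 and 80, WT 80 and 82, and P300KO 78 and 82. P300KO_TET2KO was thus above TET2KO in each set and overlapped WT and P300KO, and these differences in number were not tested. Flanking regions of all genes numbered 20653 and 21306 in P300KO_TET2KO and 19254 and 19086 in TET2KO libraries of set 1, and 28777 and 28145 against 29201 and 28006 in set 2. No flanking region passed the test in any of the 7 comparisons.

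A region counted as gained or lost when every library of one group had a peak (4 of 4) and the compared group had none. The only such member region lay 9613 bp downstream of the Ifit1 start (chr19:34650339-34650787, intergenic) and was gained in P300KO_TET2KO against TET2KO. Ifit1 encodes a protein that binds foreign RNA. The region had percentiles of 34.3, 6.66, 7.10 and 6.41 in P300KO_TET2KO and 0 in the TET2KO libraries. It was also present in WT replicate 3 (3.39) and P300KO replicate 4 (8.45), and since it was chosen by its presence in this comparison no test of it is given. In that comparison 0.0598% of all regions were gained and 0.0128% lost. No member region was gained or lost between P300KO and WT (0.0132% and 0.0105% of all regions), between TET2KO and WT (0.0142% and 0.00709%) or between P300KO_TET2KO and P300KO (0.0652% and 0.0307%).

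Further flanking regions are named after their values for p300 loss were seen. A region 6493 bp downstream of the Bst2 start (chr8:71530858-71531053, intergenic) had percentiles of 37.4 and 37.8 in P300KO replicates 3 and 4 and 39.7 and 28.2 in P300KO_TET2KO replicates 3 and 4, and was absent from the other 12 libraries. It met the minimum of 4 libraries with a peak only through libraries that lost p300, so the direction of its difference was fixed, although it is 1 of the 4 counted in set 2 alone. A flanking region of Gbp2, another of the 4, had peaks in 4 libraries that lost p300 and 3 others. An intronic region of Trim25 (chr11:89006319-89006838) had 14.4, 19.0, 23.7 and 23.3 in P300KO_TET2KO and 0 to 17.3 in the others (10.52 points). Samhd1, a dNTP hydrolase that restricts viral replication, had an intronic region (chr2:157128148-157128393) at 0, 0, 38.0 and 47.3 in WT and 32.2 to 62.1 in the other libraries (17.40 points, SE 6.05, adjusted p = 0.236).

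A region 4540 bp upstream of Cmpk2, the nucleotide kinase gene next to Rsad2, held 2 ISRE cores at its summit (chr12:26464491-26464794). Its percentiles were 44.5, 21, 48.5 and 50.3 in P300KO_TET2KO, 0, 0, 37.7 and 16.8 in TET2KO, 0, 0, 35.1 and 0.862 in P300KO, and 0, 0, 0 and 32.7 in WT. It thus had a peak in 4 of 4 P300KO_TET2KO libraries, and set 1 libraries of the other genotypes had none. Its difference for Tet2 loss was 18.76 points, given with no test, and between P300KO_TET2KO and P300KO it was 32.07 points (SE 8.17, adjusted p = 0.261).

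Genes of the pathway around the members were open as well and did not pass the test. Of 26 such genes, promoters of all 4 receptor genes, all 3 Janus kinase genes, all 5 other Irf genes and all 6 negative regulators had peaks in 16 of 16 libraries. Ifnar1, a subunit of the type I interferon receptor, had a mean percentile of 98.4, and the feedback inhibitor Socs1 had 96.3. Of the 8 upstream sensing genes, 5 were open in every library, while Tlr7 had a peak in 12, and Tlr3 and the kinase gene Ikbke in 15. None of 43 tested promoter regions and 82 tested flanking regions of these genes was called by limma in any comparison, and for p300 loss 4 and 12 of them were below an unadjusted p of 0.05, which 10.2% of all promoter regions and 13% of all regions were. The lowest adjusted p was 0.0525, for a flanking region and p300 loss.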

How the data were processed

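ATAC-seq of sorted mouse HSPCs was available as 16 peak lists, 4 for each genotype. The authors trimmed reads with cutadapt (1.9.1), aligned them with Bowtie2 (2.2.6) to mm10, removed duplicates and called peaks in each library separately with MACS2 (2.1.0). The deposited lists give the fold enrichment of each summit, a ratio to the local background, and the authors' −log10 p and −log10 q. Depth per library is unknown, the study's methods giving only a minimum for all, and none of these values is comparable between libraries as signal. How the deposit sets differ is not given in the sources used here.

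Peaks were merged at 1 bp overlap. In each list, regions were ordered by −log10 p and given a rank percentile, with 0 for no peak. Starts were those of protein-coding transcripts in GENCODE M21. Regions with a peak in at least 4 libraries were tested with limma (3.58.1, trend, R 4.3.3), with genotype and deposit set as terms and Benjamini-Hochberg adjustment over all regions at 0.05. Single values were tested with two-sided exact permutation tests within sets. On simulated ranks for p300 loss (128335 regions, 200 changed), shifts of 20 points were recovered at 11.5% and of 40 points at 70%. Contrasts share libraries, and p-values measure the spread between libraries.

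Alternatives were the log2 rank, ranking by fold enrichment, a minimum −log10 q of 2, only the strongest 50000 peaks, other filters, sets apart, replicate blocks, other distances and leaving out each library. Members and lists were chosen with earlier results of these data known. Genes were named when a region was called, when they were among the 3 largest promoter differences of a comparison or the 5 highest or lowest promoters, when a promoter peak was missing in some libraries, or when the window held at least 2 ISRE cores. Mx1 was always named, and further genes were named by role or after their values were seen. Sequences were limited to 12 genes. One other pathway gene and one marker gene are not reported here.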

Additional observations from a re-analysis of the deposited data

Results flagged for a closer look

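In 6 of 148 groups of 4 libraries (37 leading promoter regions in 4 genotypes), 1 library stood apart from the other 3 by more than Dixon's 95% critical value, which chance alone passes in about 1 group in 20. Gbp2 was highest in WT replicate 2, at a rank percentile of 83.7 where the next was 74.7, and in P300KO replicate 1, at 88.7 where the next was 77.2. Samhd1 was highest in WT replicate 1, at 93.3 against 90.1 for the next. Irf9 was lowest in P300KO replicate 2, at 95.1 against 97.5 for the nearest. Usp18 was lowest in P300KO_TET2KO replicate 1, at 95.5 against 96.4, and Zbp1 in TET2KO replicate 2, at 72.4 against 81.3. All 6 libraries belong to deposit set 1. No member region differed between Tet2 backgrounds by the interaction test.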

How the results depend on the processing

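Depth per library is unknown. Set 1 alone called no region of any gene in any comparison. Set 2 alone called 4 of 132 member regions for p300 loss (Mx1, Rsad2, and flanking regions of Bst2 and Gbp2), or 3.03%, where it called 3.02% of all regions. Of these, the Bst2 and Gbp2 regions met the minimum of 4 libraries only through those that lost p300. For p300 loss the count fell from 1 to 0 when ranked by fold enrichment, without the set term and in set 1 alone, where Mx1 differed by 6.41, 11.84 and 10.82 points and 0.039%, 0% and 0% of all regions were called. For P300KO_TET2KO against TET2KO it fell from 1 to 0 under the same 3 settings and without a filter on regions. For P300KO against WT it rose from 0 to 1 with the log2 rank, the strongest 50000 peaks and set 2 alone, and for Tet2 loss from 0 to 1 (upstream Gbp2, which met the minimum only through Tet2-deficient libraries) with a −log10 q of at least 2. The cause was not tested. Leaving out 1 library gave 0 to 1 called region for P300KO_TET2KO against TET2KO, P300KO against WT and Tet2 loss, 1 to 1 for p300 loss, and 0 for the others. Of all 128335 regions, p300 loss then called from 16 higher and 25 lower (without TET2KO replicate 4) to 230 and 466 (without WT replicate 1). P300KO_TET2KO against TET2KO called from 0 and 5 to 17 and 26 on leaving out the same libraries. Without WT replicate 1, P300KO against WT called 10 and 67 and Tet2 loss 150 and 353. Without P300KO replicate 3 and 4 in turn, these were 0 and 1 for P300KO against WT and 43 and 62 for Tet2 loss.

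On the log2 rank scale the median promoter difference was 0.0515 for P300KO_TET2KO against TET2KO, 0.126 for P300KO against WT, 0.0853 for TET2KO against WT, -0.0286 for P300KO_TET2KO against P300KO, 0.0796 for p300 loss and 0.0181 for Tet2 loss. Ranked by fold enrichment it was -1.96 for P300KO_TET2KO against TET2KO and -1.55 for p300 loss. With a −log10 q of at least 2 it was 3.39 for P300KO against WT (1.55 over all promoter regions), 4.57 for TET2KO against WT (2.48), 2.47 for p300 loss (1.37) and 3.29 for Tet2 loss (2.30).

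Of 192 member regions, those gained and lost at 3 of 4 against at most 1 of 4 were 4 (2.08%, against 1.19% of all regions) and 2 (1.04% against 0.522%) for P300KO_TET2KO against TET2KO, and 5 (2.60% against 1.11%) and 3 (1.56% against 0.580%) for P300KO_TET2KO against P300KO. For P300KO and TET2KO against WT 2 each were gained (1.04% against 0.747% and 0.642%). The single gain became 2 with a −log10 q of at least 2 (0.0554% of all regions), and 0 with the strongest 50000 peaks (0.04996%) or with 50% of the region covered (0.128%). TET2KO against WT gained 1 at 50% coverage (0.0246%), and P300KO_TET2KO lost 1 against P300KO with the strongest 50000 peaks (0.0381%). Leaving out 1 library gave 1 to 2 gained for P300KO_TET2KO against TET2KO, and 0 to 1 for P300KO against WT and for P300KO_TET2KO against P300KO.

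With the replicate block in place of the set term, 1 member region (Mx1, 11.84 points, limma adjusted p = 0.00685) was called for p300 loss and the block changed no other member call. In that fit 41 of all 128335 regions were called higher and 61 lower. Same-numbered libraries did not deviate together (12 correlations of -0.10 to 0.04). With 2 libraries per genotype and set, this cannot show whether same-numbered samples were paired.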
